A study of Mus musculus with 6 samples.

Results

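The *Ifi200* genes and *Aim2* form the mouse PYHIN family, a row of related genes on chromosome 1. Of these, 10 were taken here by name: *Aim2*, *Ifi203*, *Ifi204*, *Ifi205*, *Ifi206*, *Ifi207*, *Ifi209*, *Ifi211*, *Ifi213* and *Mndal*. They are 10 of the 36137 genes with a quantified transcript and 10 of the 18506 genes that had at least 10 counts over all libraries. All 10 passed that filter. They were chosen by their measured difference between Drp1 KO and WT macrophages, so their levels and differences are given as a description, without a test of that difference.

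Bone marrow–derived macrophages (BMDMs), macrophages grown from marrow cells in L929-conditioned medium, were compared between WT and Drp1 KO mice, with 3 libraries each. DRP1, encoded by *Dnm1l*, is the GTPase that divides mitochondria. Drp1 KO cells came from mice with the alleles LysM-Cre+/– Drp1 fl/fl, in which Cre under the lysozyme M promoter deletes the floxed gene in myeloid cells, and WT cells from LysM-Cre+/– Drp1+/+ mice, so that both groups carried Cre. On day 7 every culture was moved to medium without serum under 2.1% oxygen for 8 hours (hypoxia serum starvation, HSS), and no culture outside HSS is among the samples. The methods state that marrow of 2 mice per genotype was pooled and do not say whether each library came from a separate pool, so p-values may measure technical spread only.

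PYHIN proteins are built from a pyrin domain, which joins with other pyrin domains, and a HIN domain, which binds double-stranded DNA. AIM2 uses its HIN domain to sense DNA in the cytosol and its pyrin domain to recruit the adaptor ASC (*Pycard*), through which caspase-1 is activated in an inflammasome. The *Ifi200* genes are known as interferon-induced genes of macrophages and other immune cells. Type I interferon acts through factors that include STAT2 and IRF9 and that bind the interferon-stimulated response element (ISRE), a repeat of the letters GAAA.

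The promoters of the family are shown first because most of them hold a shared run of letters that no expression value was used to find. RefSeq promoter windows (GRCm38.p6), from 250 bases before to 50 bases after a start site, were at hand for 9 of the 10 genes, with 11 windows in all, and were placed on GRCm39 by exact match. *Ifi204* has no entry. The ISRE core was searched on both strands as GAAA, any 2 letters and GAAA. It was present in 7 of the 9 genes and in 8 of their 11 windows, where 3.99% of all genes in the table and 3.44% of all 32851 windows hold it. One of these windows, at another start site of *Mndal*, and a second match in *Ifi205*, downstream of its start, hold it on the opposite strand. The 30-base stretches around it are printed below 5′ to 3′ on the gene's strand, with the core in capitals. *Ifi209*, whose window holds no exact core, is included as well. Its letters equal the *Ifi206* core except for the substitution G1T, counted from 1 at the 5′ end of the core. Other near matches in its window were not sought.
Ifi206, chr1:173318900-173318929, minus strand: ctgagGAAATCGAAAgctatgaaccttgtc
Ifi213, chr1:173426887-173426916, minus strand: ctgagGAAATCGAAAgctatgaaccttgtc
Ifi209, chr1:173458341-173458370, plus strand: ctgagTAAATCGAAAgagatgcactctgcc
Ifi207, chr1:173569392-173569421, minus strand: ccaggGAAATCGAAAattaagaacaaaact
Mndal, chr1:173707765-173707794, minus strand: ctgggGAAATCGAAAgctatgaacagtgct
Ifi211, chr1:173740625-173740654, minus strand: ccaggGAAATTGAAAgctatgaacgaaact
Ifi203, chr1:173770069-173770098, minus strand: ctgggGAAATCGAAAgctatgaacagtgct
Ifi205, chr1:173859431-173859460, minus strand: ccaggGAAATTGAAAgctatgaacaaaact

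The stretches of *Ifi206* and *Ifi213* are the same in all 30 letters, and so are those of *Ifi203* and *Mndal*. The core began 35 bases before the RefSeq start site in *Ifi203*, 36 in *Mndal*, 37 in *Ifi211*, 40 in *Ifi206*, 41 in *Ifi207*, 73 in *Ifi213* and 134 in *Ifi205*. The quantified transcripts nearest to these start sites of *Ifi203*, *Mndal* and *Ifi205* held 2.61%, 1.24% and 32.5% of the WT counts of those genes. None of them is the most abundant transcript of its gene. In *Ifi203*, *Ifi205* and *Mndal* the letters also lie in an annotated exon of a transcript that starts further out. In *Ifi205* that is the most abundant transcript (67.5% of WT counts), which starts at chr1:173859456, so the core lies in its first bases. In *Mndal* the letters lie within the span of the most abundant transcript (82.4%), which starts at chr1:173707879. In *Ifi203* they lie upstream of the most abundant one, which starts at chr1:173770036. In *Ifi206*, *Ifi207*, *Ifi211* and *Ifi213* they lie upstream of every quantified transcript.

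The letters after the core are shared as well. The core followed by GCTATGAAC was found in 7 of the 32851 windows, those of *Ifi203*, *Ifi205*, *Ifi206*, *Ifi211*, *Ifi213*, *Mndal* and *Ifi208*, a PYHIN gene that is not on the list. The core GAAATCGAAA was found in 16 windows, of which 5 belong to listed genes and 2 to the PYHIN genes *Ifi208* and *Ifi214*. The core GAAATTGAAA was found in 38 windows, 2 of them those of *Ifi205* and *Ifi211*. A match is a run of letters and does not show that a factor binds there.

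Other letters were not shared in this way. The gamma-activated site TTCNNNGAA was found in 0 of the 9 genes (9.55% of all genes) and the NF-kB consensus in 0 (5.14%). The window of *Ifi202b*, a PYHIN gene that is not on the list, held no ISRE core and 1 gamma-activated site. The PU.1 core GAGGAA was found in *Aim2*, *Ifi206* and *Ifi213*, 3 of 9, against 31.2% of all genes, and in *Ifi206* and *Ifi213* it overlaps the first 3 letters of the ISRE core. The window of *Aim2* holds no ISRE core, and its start site belongs to a transcript with 15.5% of the WT counts of that gene, not to the most abundant one.

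The 250 bases upstream of *Ifi206* and *Ifi211* are printed whole, since these genes stand for the 2 forms of the core and these bases lie outside every quantified transcript. Their 300-base windows were 54.0% identical over the aligned columns. The closest windows were those of *Ifi209* and *Ifi214* (95.3%), *Ifi203* and *Mndal* (90.7%), *Ifi208* and *Ifi213* (89.5%), *Ifi206* and *Ifi208* (87.5%) and *Ifi207* and *Ifi211* (85.9%), while that of *Aim2* reached at most 53.9% with any other. Since several windows are near copies, the listed genes that hold the ISRE core cannot be counted as independent beside the share of all genes.
Ifi206, chr1:173318885-173319134, minus strand: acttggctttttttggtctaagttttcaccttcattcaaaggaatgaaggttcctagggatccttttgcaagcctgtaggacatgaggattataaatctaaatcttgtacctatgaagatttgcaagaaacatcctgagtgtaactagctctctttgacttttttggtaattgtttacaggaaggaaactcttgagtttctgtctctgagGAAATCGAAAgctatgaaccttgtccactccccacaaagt
Ifi211, chr1:173740613-173740862, minus strand: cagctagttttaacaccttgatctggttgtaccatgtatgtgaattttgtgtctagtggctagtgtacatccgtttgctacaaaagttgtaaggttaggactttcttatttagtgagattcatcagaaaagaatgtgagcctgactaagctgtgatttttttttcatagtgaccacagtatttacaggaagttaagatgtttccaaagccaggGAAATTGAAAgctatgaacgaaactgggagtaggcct

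The libraries held 23389488 to 32231206 estimated counts. The targeted gene *Dnm1l* (chromosome 16, GRCm39) was at 69.9 to 75.1 CPM (counts scaled to library size with TMM factors) in the WT group and 58.8 to 66.3 CPM in the Drp1 KO group. Every Drp1 KO library was thus below every WT library, as in 10.3% of the genes tested, but the difference of -0.23 on the log2 scale (SE 0.092) did not pass (adjusted p = 0.248, edgeR), and the gene-level count does not show which exons were read. Macrophage markers summed to 13590–15000 CPM (WT) and 12120–14550 CPM (Drp1 KO), and 3 of 9 passed the test, 1 of them higher, where 3.36% of all genes passed, 2.29% as higher and 1.06% as lower. Neutrophil markers summed to 6.34–19.0 CPM (WT) and 18.3–44.2 CPM (Drp1 KO), ranges that overlap slightly, with *Ly6g* at 0 in every library and 0 of 7 passing. Between libraries of the same number, *S100a8*, *S100a9*, *Ngp* and *Camp* were higher in Drp1 KO each time, whereas *Elane* and *Mpo*, under 1 CPM, were not. *S100a9* was at 3.45, 10.2 and 12.1 CPM in WT libraries 1 to 3 and at 10.9, 26.2 and 26.4 CPM in Drp1 KO libraries 1 to 3. The part of these markers in the results below was not tested. The summed B cell (60.8–68.5 and 58.5–84.0 CPM), T and NK cell (5.43–8.43 and 3.50–7.12 CPM), dendritic cell (3.75–5.86 and 2.45–4.49 CPM) and fibroblast markers (1.80–3.06 and 1.87–1.95 CPM) overlapped between the groups, with *Ncr1*, *Klrb1c*, *Gzma* and *Ccr7* at or under 3 counts in every library. In bulk RNA, fewer cells of a type and less RNA per cell cannot be told apart.

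Drp1 KO library 1 stood apart from the other 2 libraries of its genotype for these genes. It had the lowest level of the 3 in 10 of 10 listed genes, where this held for 34.6% of the 12248 genes averaging 1 CPM or more. Its level was between 0.59 of the mean of libraries 2 and 3 for *Ifi209* and 0.85 of it for *Aim2*. WT library 1 was the highest of the WT libraries in 7 of 10 listed genes, against 47.2% of all genes.

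In every one of the 10 genes all 3 Drp1 KO libraries lay above all 3 WT libraries, a pattern found for 11.7% of the genes tested. The summed level of the 10 was 888, 801 and 743 CPM in WT libraries 1 to 3 and 1873, 2671 and 2532 CPM in Drp1 KO libraries 1 to 3. That is 811 ± 73.0 CPM against 2359 ± 426 CPM (SD, n = 3 each), 2.91-fold more, and 3.19-fold more without Drp1 KO library 1. The median log2 difference of the 10 genes was 1.88, from 0.34 to 3.42, and that of all genes tested was 0.0046.

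**Figure D1:**
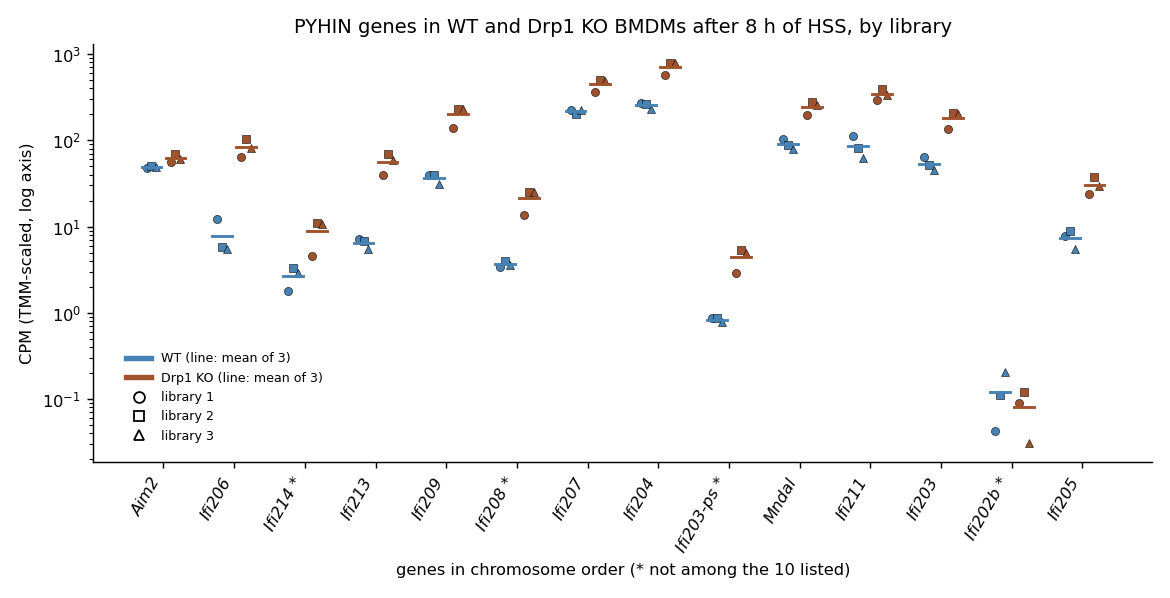
Level of each PYHIN gene in each library, in CPM on a log axis, with genes in chromosome order, one symbol per library number, and a line at the mean of the 3 libraries of a genotype. The 10 listed genes have every Drp1 KO symbol above every WT symbol, with the smallest gap in *Aim2* and the widest in *Ifi206* and *Ifi213*, and the Drp1 KO circle (library 1) is the lowest of its 3 in each.

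*Ifi206* (chr1:173296051-173318873, minus strand) and *Ifi213* (chr1:173393846-173426881, minus strand) differed most. *Ifi206* was at 12.2, 5.85 and 5.55 CPM in WT libraries 1 to 3 and at 63.9, 103 and 82.0 CPM in Drp1 KO libraries 1 to 3. *Ifi213* was at 7.25, 6.82 and 5.45 CPM and at 39.2, 68.6 and 59.5 CPM. Per length, both were among the 3 lowest genes of the list in WT cells, and the lowest Drp1 KO library was more than 5-fold above the highest WT library in each. The log2 differences were 3.42 (SE 0.29, 10.7-fold) and 3.10 (SE 0.21, 8.60-fold).

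*Ifi209* (chr1:173458380-173475494, plus strand), which lies between *Ifi213* and *Ifi208*, had 39.9, 39.7 and 31.4 CPM in the WT libraries against 138, 233 and 232 CPM in the Drp1 KO libraries. Its log2 difference was 2.44 (SE 0.20). It is the gene with the substituted ISRE core among those printed above, and its difference was exceeded in the list by those of *Ifi206* and *Ifi213* alone.

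*Ifi211* (chr1:173723911-173740612, minus strand) and *Ifi205* (chr1:173839549-173859456, minus strand) share the core GAAATTGAAA and much of their transcript sequence. *Ifi205*, whose product p205 has been linked to expression of the ASC adaptor, had 7.68, 8.81 and 5.52 CPM in the WT libraries against 24.1, 38.1 and 29.4 CPM in Drp1 KO libraries. *Ifi211* was at 112, 82.2 and 62.4 CPM and at 293, 390 and 340 CPM. Their log2 differences, 2.06 (SE 0.21) and 2.00 (SE 0.20), were nearly the same although their TPM, the level per length given further on, lay more than 10-fold apart. Of the 31-base words in the *Ifi211* transcript, 19.8% occur in no other gene and 50.6% also occur in *Ifi205*, so that the split of reads between them is an estimate of the quantification.

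*Ifi203* (chr1:173747971-173770436, minus strand) and *Mndal* (chr1:173676539-173708447, minus strand), the gene named after human MNDA, share the same 30 letters around the core. *Ifi203* had 64.3, 51.1 and 45.0 CPM in the WT libraries against 136, 207 and 201 CPM in Drp1 KO libraries. *Mndal* was at 103, 89.3 and 80.4 CPM and at 196, 276 and 260 CPM. In both genes WT library 1 is the highest of its genotype and Drp1 KO library 2 the highest of its own, and the genotypes do not overlap. The log2 differences were 1.76 (SE 0.18) and 1.42 (SE 0.14).

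*Ifi204* (chr1:173574859-173594610, minus strand), whose product p204 is a DNA-binding protein linked to macrophage differentiation and STING signaling, had the highest level per length of the 10. It had 270, 266 and 232 CPM in the WT libraries against 568, 789 and 782 CPM in Drp1 KO libraries, a log2 difference of 1.48 (SE 0.14). Its neighbour *Ifi207* (chr1:173550990-173569383, minus strand) was at 224, 201 and 226 CPM and at 361, 497 and 486 CPM, a log2 difference of 1.05 (SE 0.13). *Ifi207* thus had the smallest difference of the 9 *Ifi200* genes of the list.

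*Aim2* (chr1:173178445-173293930, plus strand), the inflammasome sensor, had 48.0, 50.6 and 49.2 CPM in the WT libraries against 55.9, 69.7 and 61.3 CPM in Drp1 KO libraries. The groups did not overlap, but the highest WT and the lowest Drp1 KO library were 50.6 and 55.9 CPM. The log2 difference was 0.34 (SE 0.10), a 1.26-fold level, and it lay between 0.26 and 0.40 with a library left out. Without Drp1 KO library 1 the log2 differences of the 10 genes ran from 0.40 in *Aim2* to 3.56 in *Ifi206*.

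Levels of different genes were compared per length, as TPM (abundance relative to transcript length and library, here summed over a gene's transcripts). In WT cells *Ifi204* came first at 208 ± 7.03 TPM (SD, n = 3), followed by *Ifi207* at 110 ± 11.1, *Mndal* at 107 ± 7.97, *Ifi211* at 87.7 ± 20.9, *Aim2* at 65.9 ± 2.60, *Ifi203* at 49.4 ± 12.4 and *Ifi209* at 27.6 ± 2.19 TPM. The lowest 3 were *Ifi213* at 9.29 ± 2.06, *Ifi205* at 7.50 ± 1.75 and *Ifi206* at 4.47 ± 1.92 TPM. Libraries of neighbours in this order overlapped for *Ifi207* and *Mndal*, *Mndal* and *Ifi211*, *Ifi211* and *Aim2*, *Ifi213* and *Ifi205*, and *Ifi205* and *Ifi206*, so the order within these pairs is not separated by the spread.

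In Drp1 KO cells *Ifi204* again came first at 552 ± 119 TPM and did not overlap with the second, but every other pair of neighbours overlapped. *Ifi211* came second at 335 ± 55.7 TPM, ahead of *Mndal* at 277 ± 58.3 and *Ifi207* at 219 ± 44.9 TPM. *Ifi203* had 150 ± 22.9 and *Ifi209* 135 ± 38.0 TPM. *Aim2*, ahead of *Ifi203* and *Ifi209* in WT cells, was behind both at 87.5 ± 6.84 TPM, next to *Ifi213* at 81.4 ± 22.6 TPM. *Ifi206* followed at 47.0 ± 11.6 TPM and *Ifi205* at 32.3 ± 8.14 TPM.

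The make-up of the summed TPM shifted accordingly. *Aim2* made up 8.88% to 10.3% of it in the WT libraries against 4.07% to 5.54% in the Drp1 KO libraries, and *Ifi207* 15.0% to 19.1% and 11.1% to 11.8%. *Ifi206* went from 0.464%–0.922% to 2.32%–2.66% and *Ifi213* from 1.08%–1.59% to 3.86%–4.70%. *Ifi209* made up 3.93%–4.38% and 6.14%–7.55%. These shares did not overlap between the groups, whereas that of *Ifi204* did, at 28.7%–32.3% and 28.0%–30.1%.

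**Figure D2:**
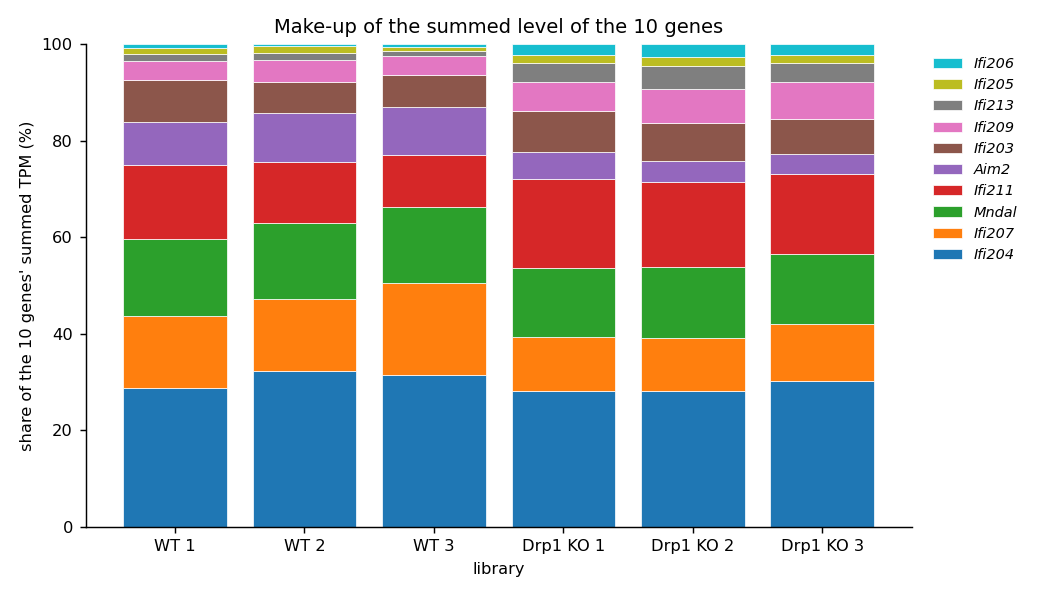
Share of each of the 10 genes in their summed TPM, in percent, stacked to 100% for each of the 3 WT and 3 Drp1 KO libraries. *Ifi204* is the largest block in all 6 bars, the *Aim2* block is smaller in every Drp1 KO bar than in every WT bar, and the blocks of *Ifi206*, *Ifi213* and *Ifi209* are larger.

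The genes also varied together within a genotype. Over the deviations of the 6 libraries from their genotype's mean log2 CPM, the 36 pairs of listed genes without *Aim2* correlated at a Pearson r of 0.36 to 0.999 (median 0.80), and the 9 pairs with *Aim2* at 0.31 to 0.79 (median 0.71). The points share libraries, depth and, for near-identical transcripts, reads, so that these values describe the libraries only.

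The family lies in one stretch of 681 kb (chr1:173178445-173859456, GRCm39) in which the annotation places 14 PYHIN genes, and 4 of them are not on the list. *Ifi208* had 3.41, 4.01 and 3.61 CPM in the WT libraries against 13.5, 25.2 and 25.2 CPM in Drp1 KO libraries. *Ifi214* was at 1.81, 3.34 and 2.93 CPM and at 4.54, 11.2 and 10.8 CPM, and the pseudogene *Ifi203-ps* at 0.86, 0.86 and 0.78 CPM and at 2.91, 5.38 and 5.0 CPM. In these 3 genes the groups did not overlap, with log2 differences of 2.54 (SE 0.24), 1.72 (SE 0.34) and 2.41 (SE 0.29). *Ifi202b*, which encodes a HIN protein without a pyrin domain, had 1, 3 and 6 counts in WT and 2, 4 and 1 counts in Drp1 KO libraries, too few to show a difference.

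Most of the *Ifi214* counts, 74.5% in WT and 74.2% in Drp1 KO cells, were assigned to a transcript with a retained intron. Its other sequence overlaps that of *Ifi209*, since 47.1% of the 31-base words of *Ifi209* also occur in *Ifi214*. *Ifi203-ps* holds 15.1% of the words of *Ifi203*, and *Ifi208* holds 23.2% of those of *Ifi213* and 17.4% of those of *Ifi206*. Words found in no other gene made up 52.6% in *Ifi209*, 62.5% in *Ifi206*, 66.4% in *Ifi204*, 68.3% in *Mndal*, 73.8% in *Ifi213*, 77.8% in *Ifi203*, 78.0% in *Ifi205*, 85.6% in *Ifi207* and 95.6% in *Aim2*. *Aim2* shares 0% of its words with the other PYHIN genes.

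The genes around the family were read as a comparison that the list did not use. The annotation holds 63 other genes within or up to 500 kb outside the cluster, of which 43 were quantified and 11 had enough counts to test. Of these, 0 passed (edgeR), 0 had an unadjusted p under 0.05 and 0 passed with DESeq2, where 3.36% of all genes passed with edgeR and 8.80% of those with an adjusted p did so with DESeq2. Their median log2 difference was -0.28. They are mostly olfactory receptor genes with means of at most 1.67 CPM, so that a difference of moderate size was not detectable at this depth. On the side of *Aim2* the nearest genes, *Cadm3* and *Ackr1*, had at most 4 counts in a library, and on the side of *Ifi205* *Or10aa1* differed by -0.32 (SE 0.52, adjusted p = 0.849) and *Or10aa3* by -0.31 (SE 0.68, adjusted p = 0.896, edgeR).

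**Figure D3:**
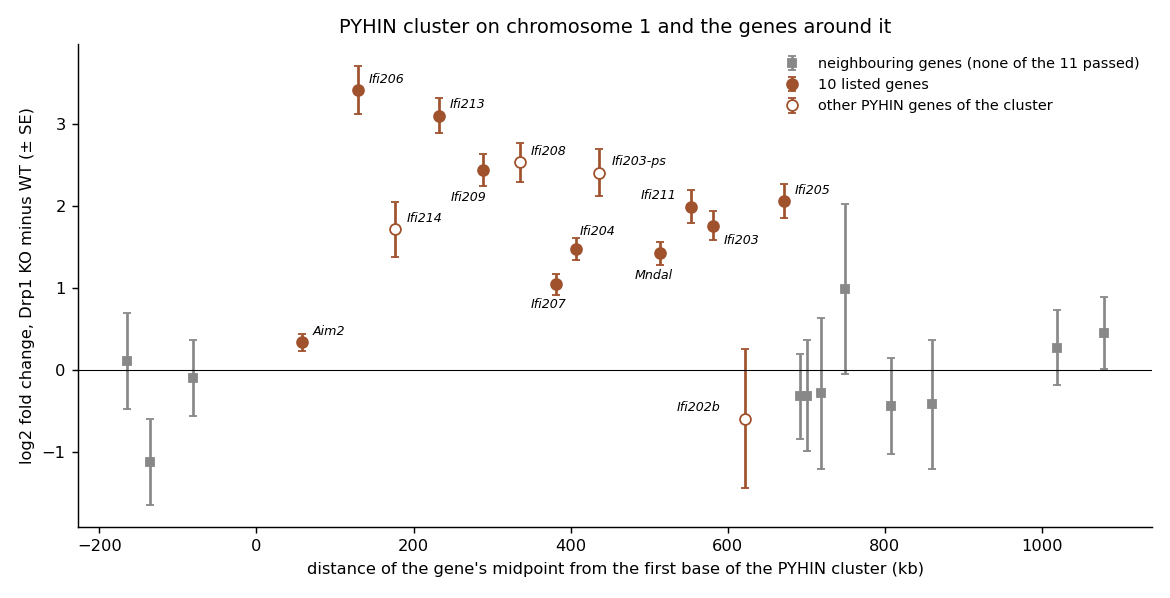
Log2 difference (Drp1 KO minus WT, bars ± SE) of each PYHIN gene and of the 11 tested neighbours against the distance of the gene's midpoint from the first base of the cluster, in kb. The listed genes (filled) lie between 0.34 and 3.42, with *Aim2* at the left end lowest and *Ifi206* beside it highest, open circles are the PYHIN genes that are not listed, and the neighbours (squares) lie on both sides of 0 with wide bars.

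The reads of a gene can also be divided among its transcripts. Only the most abundant transcript of each gene was set beforehand, and the others named here and below were picked after their values were seen. How many of all transcripts have shares that do not overlap between the groups was not counted. *Aim2* counts were assigned mainly to a 5-exon transcript (ENSMUST00000166137.3) and to a 12-exon transcript that starts further upstream (ENSMUST00000147604.8). The 12-exon transcript held 44.1%, 32.3% and 38.6% of the *Aim2* counts in WT libraries and 12.5%, 22.2% and 22.6% in Drp1 KO libraries. The 5-exon transcript held 33.8%, 49.3% and 45.5% in WT and 61.5%, 58.3% and 56.6% in Drp1 KO libraries. Neither share overlapped between the groups, whereas a 6-exon transcript with a start between them held 13.1% to 18.6% and 15.3% to 20.8%. Scaled for the length of the transcripts, the log2 difference of *Aim2* was 0.49 instead of 0.34.

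*Mndal* counts were assigned mainly to a 10-exon transcript (ENSMUST00000188804.7), with 85.2%, 79.7% and 82.3% in WT and 75.7%, 65.3% and 64.2% in Drp1 KO libraries. A 7-exon transcript with a start further in (ENSMUST00000186442.7) held 5.53%, 7.91% and 6.69% in WT and 14.7%, 22.0% and 24.0% in Drp1 KO libraries. The groups did not overlap for either. Nor did they for the main *Ifi207* transcript, at 71.35%, 78.17% and 71.44% in WT and 70.95%, 67.09% and 64.53% in Drp1 KO libraries. The transcript with the highest mean share was the same in both genotypes in all 10 genes.

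**Figure D4:**
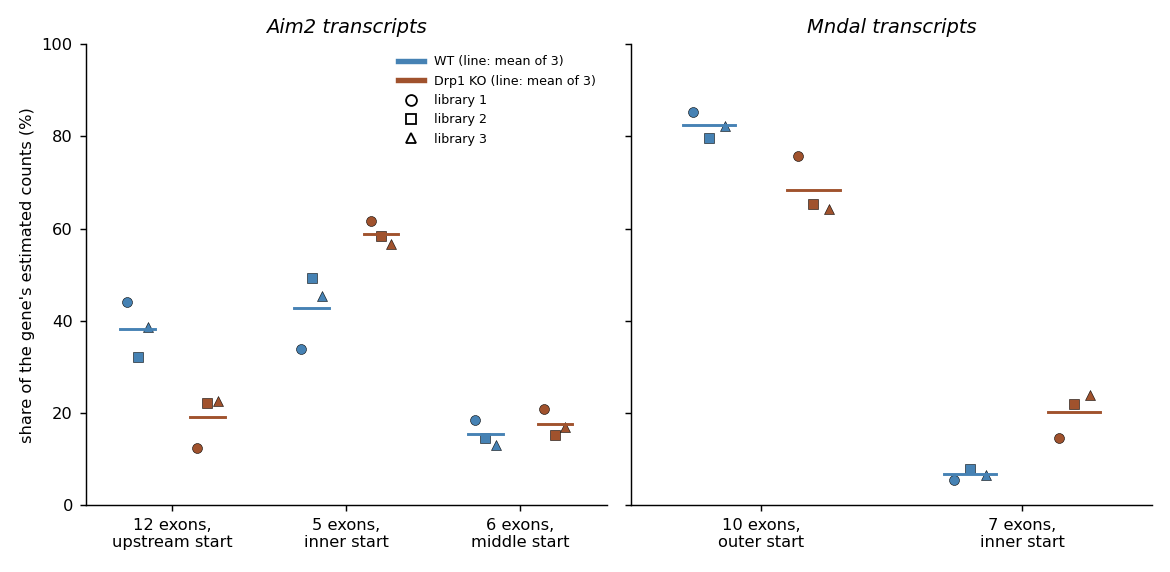
Share of a gene's estimated counts, in percent, assigned to the main transcripts of *Aim2* (left) and *Mndal* (right) in each library, with a line at the mean of 3. The 12-exon *Aim2* transcript is lower and the 5-exon one higher in all Drp1 KO libraries, and the 7-exon *Mndal* transcript is above 14% in all Drp1 KO libraries and under 8% in all WT libraries.

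Shares of transcripts without a full coding sequence were also read. A retained-intron transcript of *Ifi205* held 20.0% to 46.0% of its counts (WT) and 15.3% to 20.8% (Drp1 KO), which overlap. In *Ifi209* a transcript annotated for nonsense-mediated decay held 28.3% to 29.4% and 20.5% to 26.8%, which do not. *Ifi213* counts on protein-coding transcripts were 58.1% to 80.9% (WT) and 80.2% to 83.1% (Drp1 KO). With protein-coding transcripts only, the log2 differences were 2.33 for *Ifi205* (2.06 with all), 2.57 for *Ifi209* (2.44) and 3.35 for *Ifi213* (3.10). The other listed genes changed less, as in *Ifi203* (1.81 against 1.76), *Mndal* (1.42 in each) and *Aim2* (0.33 against 0.34).

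Genes that act with the PYHIN proteins were tested with all genes, from lists drawn up for this description. Cytosolic DNA sensing was represented by 24 genes for sensors, adaptors and nucleases, and 2 of 24 passed, both higher in Drp1 KO cells, where 2.29% of all genes passed as higher. The list's median log2 difference was 0.004. *Zbp1*, a sensor of Z-form nucleic acids, rose from 13.1 ± 4.66 to 61.5 ± 14.4 CPM (SD, n = 3 each), a log2 difference of 2.24 (SE 0.25, adjusted p = 0.00100, edgeR). *Trex1*, the exonuclease that removes cytosolic DNA, rose from 4.93 ± 0.62 to 12.5 ± 1.86 CPM, a log2 difference of 1.35 (SE 0.17, adjusted p = 0.00198, edgeR). Both passed under each of the 13 alternatives tried.

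The central sensor and adaptor of this pathway did not pass. *Cgas*, which makes cyclic GMP-AMP on DNA, was at 5.45 ± 1.16 and 8.26 ± 0.99 CPM (log2 difference 0.60, SE 0.19, adjusted p = 0.126, edgeR). *Sting1*, its receptor, was at 5.03 ± 0.12 and 6.34 ± 0.91 CPM (0.33, SE 0.17, adjusted p = 0.368) and *Irf3* at 12.9 ± 0.99 and 13.0 ± 2.21 CPM (0.01, SE 0.15, adjusted p = 0.990). *Cgas* also passed without WT library 1 (adjusted p = 0.0443). In the fit with a replicate block, which pairs same-numbered libraries, 4 of 24 passed, where 12.0% of all genes did and 6.73% as higher. *Cgas* (adjusted p = 0.0173) and, lower in Drp1 KO cells, *Enpp1* (0.00432), named here after its value was seen, were added.

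Of 22 inflammasome genes, 3 passed, all higher, where 2.29% of all genes passed as higher, and the median log2 difference was 0.16. *Casp1*, the protease of the inflammasome, rose from 137 ± 5.82 to 217 ± 32.7 CPM (log2 difference 0.67, SE 0.12, adjusted p = 0.0145, edgeR). *Casp4*, which encodes caspase-11, the sensor of cytosolic lipopolysaccharide, rose from 17.9 ± 1.36 to 32.9 ± 5.73 CPM (0.88, SE 0.14, adjusted p = 0.00820). *Il1rn*, the antagonist of the interleukin-1 receptor, rose from 274 ± 12.4 to 472 ± 119 CPM (0.78, SE 0.17, adjusted p = 0.0322).

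The calls of these 3 genes depended on single libraries, while the log2 differences stayed positive in every fit. Without WT library 3 the count was 0 of 22, with *Casp4* at a log2 difference of 0.82 and an adjusted p of 0.0553, and without WT library 2 it was 1 (edgeR). *Casp1* no longer passed without WT library 2 or 3 or Drp1 KO library 2 or 3, at log2 differences of 0.60 to 0.64. *Il1rn* no longer passed with length-scaled counts (0.70) or without any one library except Drp1 KO library 2 (0.64 to 0.81). Under the replicate block 6 of 22 passed, where 12.0% of all genes did. *Gsdme* (adjusted p = 0.0290), *Il18bp* (0.00466) and, lower in Drp1 KO cells, *Nlrp1b* (0.0328) were added, and these were named after their values were seen.

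The adaptor, the pore former and the cytokines did not pass. *Pycard* had 31.8 ± 2.96 CPM in WT cells against 32.3 ± 2.17 CPM in Drp1 KO cells (log2 difference 0.02, SE 0.11, adjusted p = 0.964, edgeR), and *Gsdmd* at 40.1 ± 3.56 and 45.0 ± 3.68 CPM (0.17, SE 0.11, adjusted p = 0.506). *Il1b* was at 1.09 ± 0.31 and 1.51 ± 0.88 CPM (0.49, SE 0.45, adjusted p = 0.676) and *Il18* at 13.0 ± 1.18 and 16.5 ± 3.54 CPM (0.34, SE 0.16, adjusted p = 0.336).

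Type I interferon signalling was represented by 17 genes, of which 16 could be tested and 6 passed, all higher, where 2.29% of all genes passed as higher. The list's median log2 difference was 0.36. *Ifnb1*, the ligand, had 0 counts in WT libraries and in Drp1 KO libraries 1 and 2, and was listed at 0.15 CPM in Drp1 KO library 3. The receptor subunit *Ifnar1* had 172 ± 11.4 CPM in WT cells against 156 ± 8.47 CPM in Drp1 KO cells (log2 difference -0.14, SE 0.094, adjusted p = 0.511, edgeR). *Ifnar2*, *Jak1* and *Tyk2*, the rest of the receptor complex and its kinases, did not pass either.

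*Stat2* and *Irf9*, which encode ISRE-binding factors, passed. *Stat2* had 44.8, 48.4 and 43.0 CPM in the WT libraries against 86.0, 123 and 133 CPM in Drp1 KO libraries, and rose by 1.33 on the log2 scale (SE 0.15, adjusted p = 0.00124, edgeR). *Irf9* was at 49.0, 41.6 and 40.1 CPM and at 76.3, 92.0 and 89.5 CPM (0.98, SE 0.12, adjusted p = 0.00149, edgeR). As in the PYHIN genes, Drp1 KO library 1 was the lowest of its genotype in both, and the groups did not overlap.

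*Irf7*, the factor that amplifies interferon production, had 74.7, 21.2 and 19.3 CPM in the WT libraries against 349, 355 and 271 CPM in Drp1 KO libraries (log2 difference 3.09, SE 0.45, adjusted p = 0.00554, edgeR). Its WT library 1 stood apart, and without that library the log2 difference was 4.0. *Usp18*, which dampens signaling at the receptor, was at 6.08, 6.78 and 3.92 CPM and at 40.0, 53.7 and 55.6 CPM (3.16, SE 0.21, adjusted p = 0.000198). *Isg15*, a ubiquitin-like modifier, was at 2.54, 3.30 and 2.18 CPM and at 8.08, 14.8 and 10.4 CPM (2.06, SE 0.25, adjusted p = 0.00172).

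*Irf1* rose from 40.3 ± 4.65 to 60.6 ± 4.88 CPM (0.59, SE 0.11, adjusted p = 0.0214, edgeR). Without WT library 2 or 3 or Drp1 KO library 2 or 3 its log2 difference stayed at 0.50 to 0.60 but its adjusted p was 0.0679 to 0.142, and with length-scaled counts they were 0.51 and 0.0779 (edgeR). The other 5 of the 6 passed under each of the 13 alternatives tried. Under the replicate block 8 of the list passed, 7 of them higher, where 12.0% of all genes passed and 6.73% as higher. DESeq2 called 8 of this list (7 higher), 4 inflammasome genes (4 higher) and 3 DNA sensing genes (2 higher), where it called 8.80% of all genes with an adjusted p and 5.05% as higher.

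**Figure D5:**
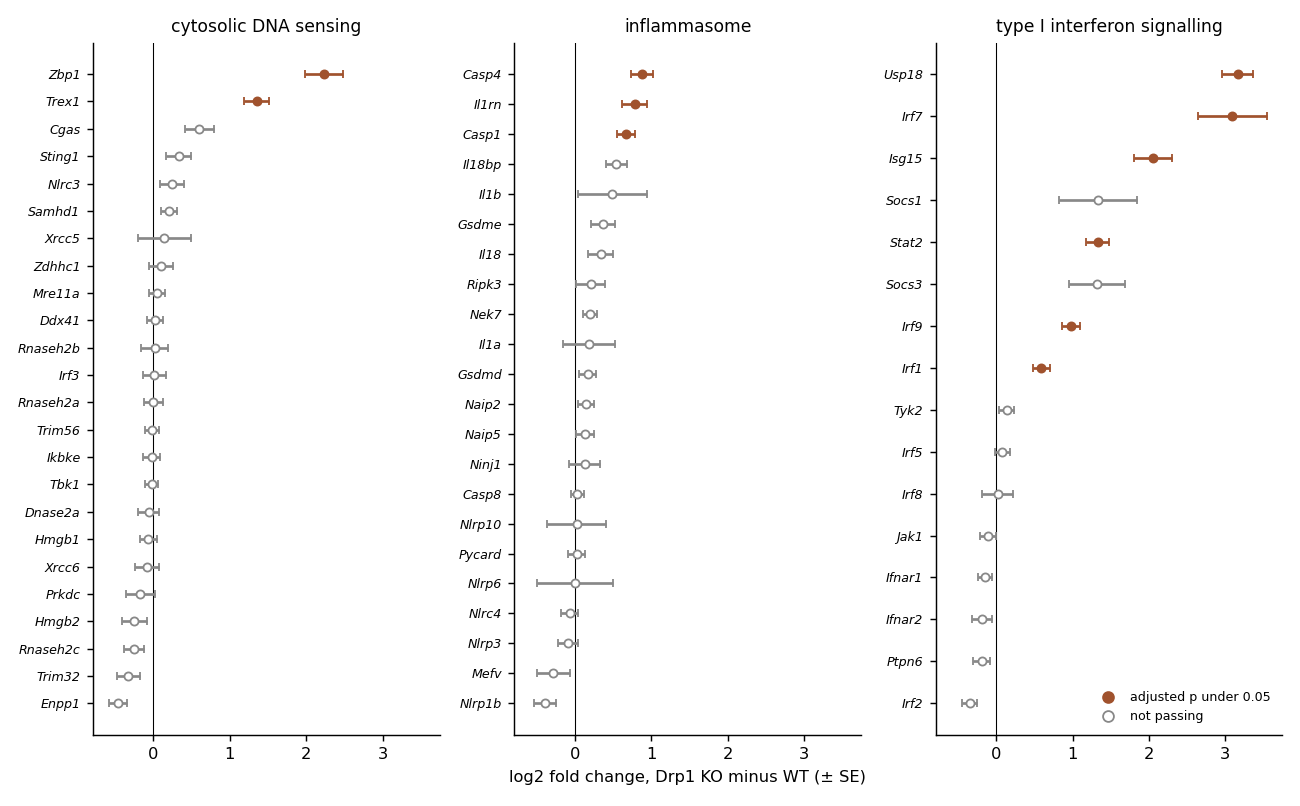
Log2 difference (Drp1 KO minus WT, bars ± SE) of each tested gene of the 3 lists, ordered within each list, with filled points for an adjusted p under 0.05 (edgeR). Filled points are 2 of 24 for DNA sensing, 3 of 22 for the inflammasome and 6 of 16 for type I interferon signalling, all to the right of 0, and *Pycard*, *Irf3* and *Ifnar1* lie near 0.

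The genes whose log2 CPM was most like that of the summed 10 genes over the 6 libraries were sought among 12238 other genes averaging 1 CPM or more. They were *Gm6377* (Pearson r 0.999), *Slfn1* (0.999), *Ms4a4c* (0.999), *Gm10123* (0.999) and *Ddx60* (0.998). Their log2 differences were 1.23, 4.13, 3.08, 0.42 and 1.32. These correlations cover both genotypes and the same 6 libraries, so that the difference between genotypes is part of them. *Slfn1* averaged 1.45 CPM in WT cells against 25.2 CPM in Drp1 KO cells, and *Ddx60*, an RNA helicase, at 65.4 and 163 CPM.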

How the data were processed

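Per the labels, libraries were made with a stranded poly(A) mRNA kit, and the submitters' processing notes name kallisto 0.46.1, DESeq2 1.44.0 and GRCm39. The authors quantified reads on Ensembl cDNA and deposited, per transcript and library, estimated counts and TPM, neither scaled between libraries. Kallisto divides reads of near-identical transcripts by estimation. Estimated counts were added per gene with the GENCODE vM39 annotation (99.4% of transcripts matched) and rounded. Genes with at least 10 counts were tested with edgeR 4.0.16 (R 4.3.3), TMM scaling, the quasi-likelihood test and Benjamini-Hochberg adjustment over 18506 genes. SE is the absolute log2 difference over the root of its F statistic.

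The listed genes and lists were chosen with earlier results of these data known. Named were all PYHIN genes, list genes with adjusted p under 0.05 and 14 fixed genes, the 2 nearest neighbours on each side, and the 5 most alike genes. A gene of the interferon list and a B cell marker are not reported here and were left out of their lists. Shared 31-base words were counted in GENCODE transcripts, of which 74.0% have the length in the deposited files (32 of 50 for the family). On simulated data (18155 genes, 200 changed 2-fold) the test recovered 78% with 0 false calls. The counts were simulated without shared deviations between libraries, and only genes averaging 1 CPM or more were changed. These rates therefore check the fit and do not carry over to the deposited libraries. Same-numbered libraries deviated together (r 0.510, 0.204 and 0.298), although WT 2 and Drp1 KO 3 did so as well (0.326). As every same-numbered r was above 0.1, numbers were taken as pairs, from the data, in an alternative fit. No 2 libraries were copies (chi-square per degree of freedom at least 9.50).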

Additional observations from a re-analysis of the deposited data

How the results depend on the processing

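Alternatives were DESeq2 1.42.0, median-of-ratios size factors, library size only, edgeR's filterByExpr, a minimum of 1 count, length-scaled counts, a replicate block, each library left out in turn and, for the PYHIN genes, protein-coding transcripts only. The 10 PYHIN genes kept a positive difference under all 14. Of their 140 values, 139 moved by less than the spread between libraries, and the exception was *Aim2* with length-scaled counts (0.49). The summed log2 difference of 1.54 lay between 1.45 and 1.67. Over all genes, the count of 621 became 1155 with DESeq2, 1065 with a minimum of 1 count and 2212 with the replicate block, and 181 to 904 with a library left out. With the block, DNA sensing calls went from 2 to 4 and inflammasome calls from 3 to 6. With a library left out, inflammasome calls ranged from 0 to 2. The replicate block ended no call of a named gene, and the cause of these shifts was not tested. *Irf3*, not called, was negative with DESeq2 (-0.002), median-of-ratios factors (-0.001), library size only (-0.008), filterByExpr (-0.003), length scaling (-0.334), the block (-0.004) and, with a library left out, between -0.069 and 0.150. *Pycard*, not called, ranged from -0.038 to 0.085 with a library left out, negative in 3 of the 6 fits. With 3 libraries per group, leaving one out leaves 2 against 3, and genes with a few counts, such as *Ifi202b* and *Ifnb1*, are limited by depth. A count of 3 is 0.0936 to 0.129 CPM.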
